A study of Mus musculus with 6 samples.

Results

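The 10 genes described here encode the core transcriptional regulators of oxidative metabolism in muscle: the PGC-1 coactivators Ppargc1a and Ppargc1b, their muscle-enriched partner Perm1, the estrogen-related receptors Esrra, Esrrb and Esrrg, the fatty acid-sensing receptors Ppara and Ppard, and the mitochondrial biogenesis factors Nrf1 and Tfam. They were picked by name through their Ensembl gene IDs, and all 10 were found among the 41025 genes of each table. RNA came from the tibialis anterior, a mostly fast-twitch muscle of the lower hindlimb, of C57BL/6 mice at 8 weeks of age. Of 6 libraries, 3 carried the genotype wild type (WT1, WT2 and WT3 below) and 3 the genotype Mettl21e KO (KO1, KO2 and KO3), where KO stands for a knockout of the protein methyltransferase gene Mettl21e. No treatment is named, how the knockout was made is not stated in the labels, and nothing says whether each library came from a separate mouse. The p-values therefore cover only the spread among 6 libraries, and that spread may be technical.

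PGC-1 proteins do not bind DNA themselves. They are recruited by nuclear receptors such as the ERRs and PPARs and by NRF1, and they raise transcription of genes for respiration and fat oxidation in response to exercise, cold and fasting. NRF1 in turn acts on the promoters of genes such as Tfam, whose protein packages mitochondrial DNA and starts its transcription, while Perm1 is induced by PGC-1 and ERR proteins in striated muscle.

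The values are FPKM, fragments scaled to gene length in kilobases and to library depth. Between 8476591 and 10856669 fragments stood behind a library. The transcript of the targeted gene was not lower in the KO libraries: Mettl21e was at 2.46, 0.309 and 1.23 FPKM in WT1, WT2 and WT3 and at 1.64, 1.45 and 1.88 FPKM in KO1, KO2 and KO3. WT and KO are therefore labels throughout, and each direction below is a direction between the libraries labelled KO and the libraries labelled WT. The 8 genes listed as fast fibre markers, such as Ckm and Myh4, summed to 69523 to 76360 FPKM in a library, and all 8 were present. That sum includes the skeletal actin gene Acta1 at 13695 to 19584 FPKM, so it does not measure fast fibres alone. Of the 8, 5 were higher and 3 lower in KO, and 1 did not overlap between labels, higher in KO. The 8 markers of slow and type IIa fibres summed to 1454 to 2209 FPKM in WT and to 551 to 1343 FPKM in KO. These sums did not overlap, and each of the 8 had a lower mean FPKM in KO. Most of each sum was Myh2, at 926, 1638 and 1290 FPKM in WT and 987, 973 and 297 FPKM in KO, with overlap. By gene, 3 of the 8 did not overlap between labels, beside 9.48% of all tested genes. For several of the markers WT3 was far below WT1 and WT2. For example, Tnnc1 was at 23.4, 28.7 and 3.28 FPKM in WT and 3.93, 6.44 and 5.04 FPKM in KO. Of the 6 adipocyte markers, each had a lower mean FPKM in KO (summed level 23.4 to 57.3 FPKM in WT, 16.1 to 27.9 FPKM in KO), and so did each of the 5 fibroblast markers (178 to 368 and 184 to 256 FPKM), the 4 endothelial markers (78.8 to 128 and 93.4 to 111 FPKM) and the 5 macrophage markers (4.28 to 10.2 and 6.14 to 6.17 FPKM). The 3 brown fat markers, each also with a lower mean FPKM in KO, summed to 1.77 to 2.52 FPKM in WT and 1.59 to 2.72 FPKM in KO, and Ucp1, the defining one, was listed at 0 in 5 libraries and at 0.0688 FPKM in WT3. In whole muscle, fewer cells of a type and less RNA per cell cannot be told apart, and the part of these markers in the results below was not tested.

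Ppargc1b was left out of the promoter search, so its promoter is not described here. The promoters of the other 9 members were taken as 14 RefSeq windows of 300 bases (build GRCm38.p6). These windows ran from 250 bases before to 50 bases after each gene start. They were searched on both strands for an ERR element (TNAAGGTCA), an NRF1 core (GCGCATGCG), a cAMP response element (TGACGTCA) and a GABP site (ACTTCCGG), since regulators of this network act on each other's promoters. Of 32851 such windows of all genes, 1.28% held the ERR element, 1.75% the NRF1 core, 1.79% the cAMP response element and 3.89% the GABP site. Among the members, the Ppara window held the NRF1 core, in a palindrome that matches on both strands 1 base apart, and the Tfam window held the GABP site on the reverse strand. The ERR element and the cAMP response element were not found in these letters in the 14 windows. The 2 matching stretches are shown 5′ to 3′ with the forward match in capitals for Ppara (chr15:85735735-85735763, plus strand, starting 31 bases before the RefSeq gene start) and the reverse match in capitals for Tfam (chr10:71238074-71238101, minus strand, starting 47 bases before it). For both genes that RefSeq start, and the match, lie inside the longer GENCODE extent printed further on.
Ppara: gggctcggtgGCGCATGCGcgcggactag
Tfam: ctgccgcggaCCGGAAGTccgggcttcc
A match of letters is a description and does not show that a factor binds there.

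As deposited, Esrra had the highest level of the 10 regulators and Esrrb the lowest. Over the 6 libraries the mean FPKM were 152 for Esrra (range 132 to 189), 64.6 for Perm1 (52.8 to 77.8), 30.1 for Tfam (28.3 to 31.8), 20.4 for Ppard (17.3 to 23.4) and 16.0 for Ppargc1a (12.5 to 19.9). Below them came Ppara at 10.03 (8.72 to 12.7), Esrrg at 9.50 (7.49 to 12.1), Ppargc1b at 8.16 (5.84 to 11.05), Nrf1 at 6.10 (4.77 to 7.80) and Esrrb at 5.22 (4.47 to 5.87). The ranges of Esrra, Perm1, Tfam and Ppard were separate from one another, and from Ppard down each range overlapped that of the next gene. Among the 11383 genes tested, those whose mean reached 1 FPKM, 95.6% had a lower mean than Esrra, 90.0% a lower mean than Perm1 and 35.9% a lower mean than Esrrb.

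**Figure D1:**
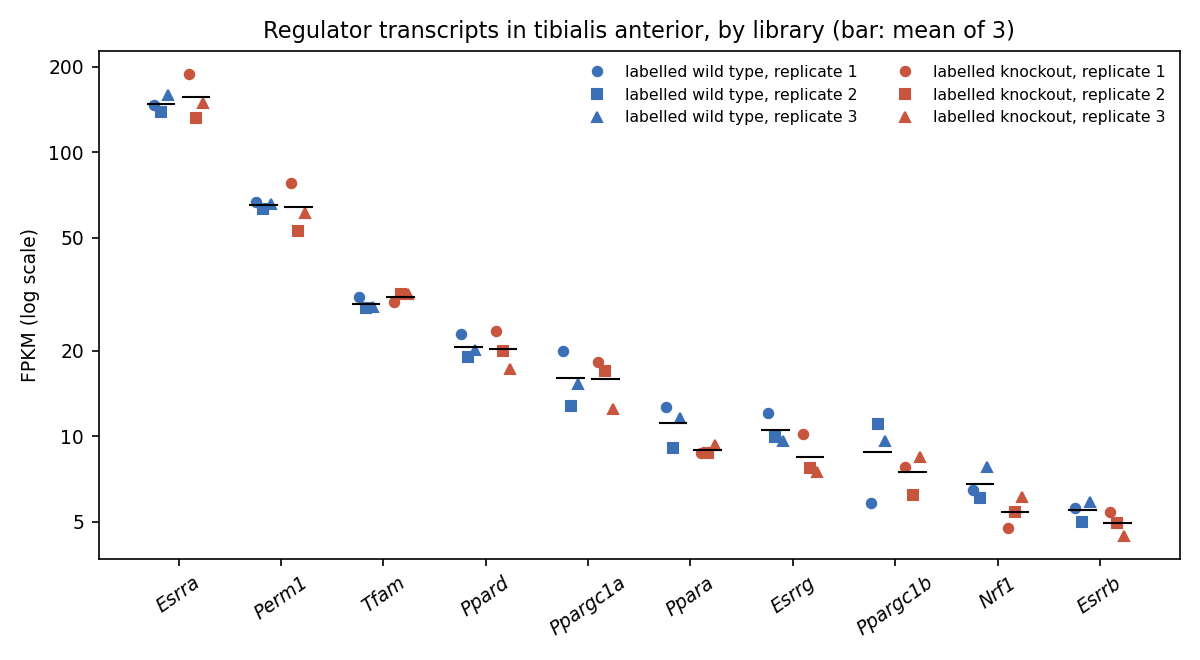
FPKM of the 10 regulators (log axis) in each library, ordered by mean level, with WT libraries in blue, KO libraries in red, a marker shape per replicate number and a bar at the mean of 3. Esrra (132 to 189 FPKM) lies above Perm1 (52.8 to 77.8 FPKM) in every library, and the ranges of the blue and red points overlap for each of the 10 genes.

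That order rests on the gene length behind each value. The length that turns the FPKM into whole fragments was 924 bases for Esrra, 3901 for Perm1, 1383 for Tfam, 1511 for Ppard, 3040 for Ppargc1a and 1856 for Nrf1, and over 10354 well covered genes it equalled the mean length of the annotated transcripts for 65.1% of genes and their joint exon length for 6.26%. For Esrra and Ppard it was shorter than that mean, which is 1294 and 1696 bases, and the reason is not known. Esrra has 5 annotated transcripts, the longest of 2489 bases, whereas Perm1 has 1, of 3901 bases. With the same fragments divided by the longest transcript, Perm1 (64.6, range 52.8 to 77.8 on the same scale) came before Esrra (56.6, range 49.0 to 70.1), and their ranges overlapped. With the joint exon length, Perm1 stood above Esrra (32.1, range 27.8 to 39.7) without overlap. Nrf1, with 20 annotated transcripts, moved from 6.10 to 2.80 and 1.10, the lowest of the 10 under both lengths, and Ppard from 20.4 to 8.29 and 4.11. Which transcripts of a gene the fragments came from was not analysed here, so the order of Esrra and Perm1 is not settled by these values. Within 1 gene the length scales all 6 libraries alike, but through the added 1 it still bears on the size of a log2(FPKM + 1) difference.

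**Figure D2:**
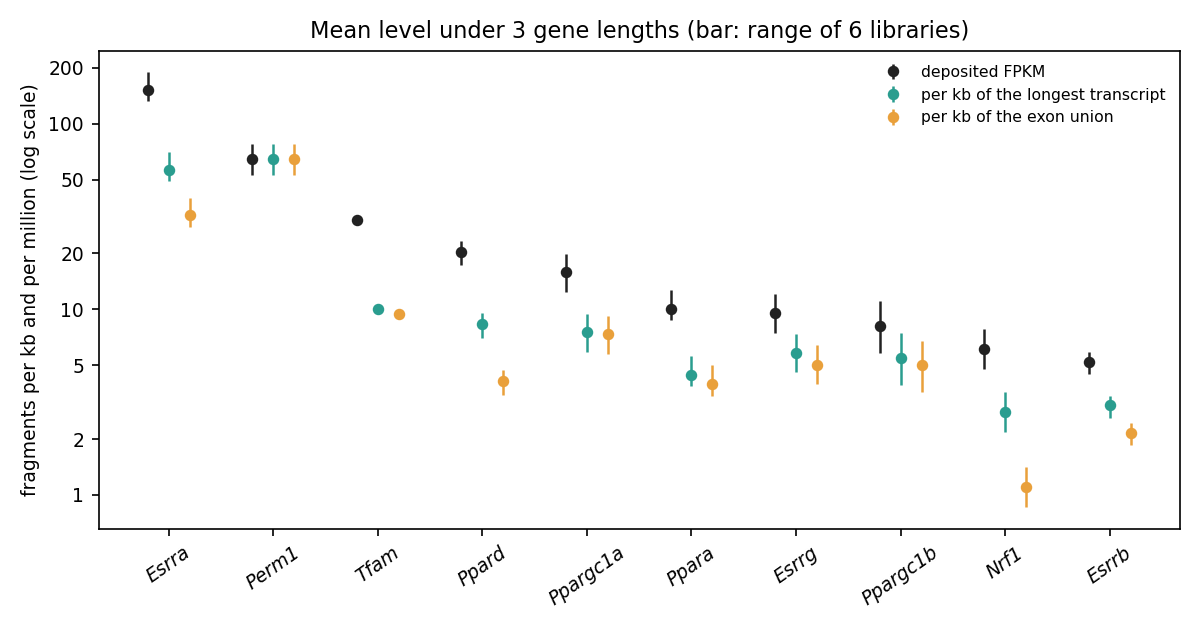
Mean level of each regulator over 6 libraries on the FPKM scale (log axis), with bars for the range, under the deposited FPKM (black), the longest transcript (green) and the joint exon length (orange). Perm1 is the same under all 3 lengths, while Esrra moves from 152 to 56.6 and 32.1.

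Of the 10 regulators, 0 passed limma's test between the labels at a Benjamini-Hochberg adjusted p of 0.05, and over all 11383 tested genes 0 passed (0%). At an unadjusted p under 0.05 there were 0 of the 10, against 4.59% of all tested genes. Labels are said not to overlap where the 3 KO values lay all above or all below the 3 WT values. This held for 0 of the 10, against 9.48% of all tested genes. Differences are given as log2(FPKM + 1), where the added 1 shrinks the change of a weakly expressed gene. The KO mean was lower for 8 regulators and higher for 2. Their median log2 difference was -0.09, and over all tested genes the median was -0.02 and 56.7% were lower. The 95% intervals ran from -0.66 at the lowest (Ppargc1b) to 0.41 at the highest (Ppargc1a), so that fold changes below 0.632 or above 1.33 lie outside the intervals of all 10 genes on this scale. The adjusted p was 0.9998 for Ppargc1a and 0.988 for the other 9.

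**Figure D3:**
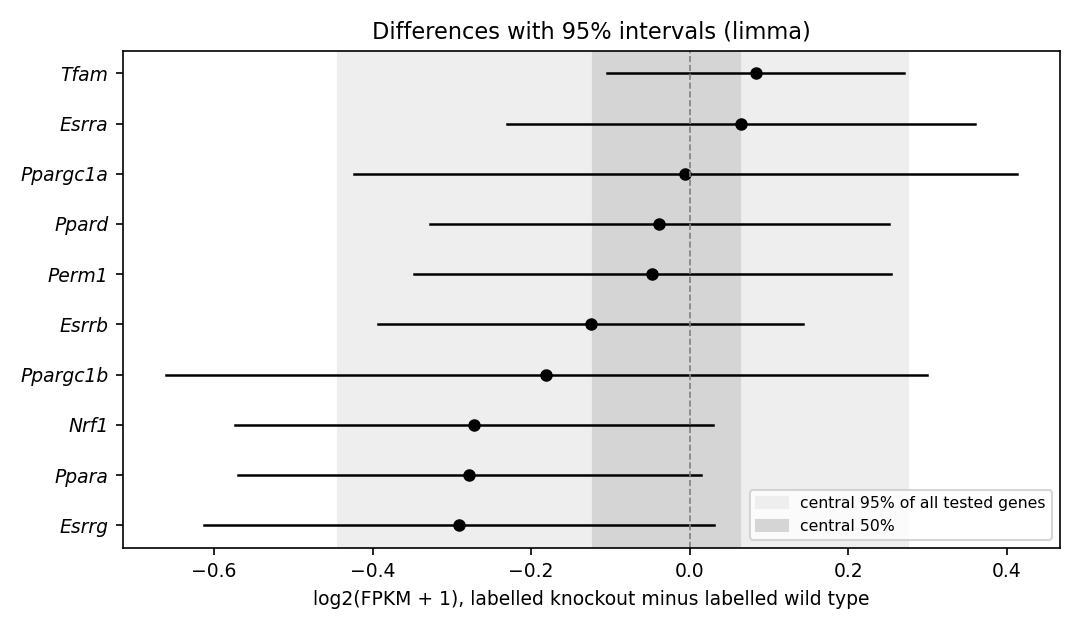
Log2(FPKM + 1) difference (KO minus WT labels) of each regulator with its 95% interval from limma, over bands that hold the central 95% and 50% of all 11383 tested genes. All 10 intervals span 0, and Esrrg (-0.29), Ppara (-0.28) and Nrf1 (-0.27) lie farthest from it.

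Ppargc1a (ENSMUSG00000029167, chromosome 5, 51454250 to 51567726, minus strand, mm10, protein coding), the coactivator PGC-1alpha, was at 19.9, 12.8 and 15.3 FPKM in WT1, WT2 and WT3 and at 18.3, 16.96 and 12.5 FPKM in KO1, KO2 and KO3. WT1 was highest and KO3 lowest, and the labels overlapped over nearly their whole range. The means were 16.0 ± 3.63 and 15.9 ± 3.06 FPKM (SD, n = 3 each), with a log2 difference of -0.01 (SE 0.18, limma adjusted p = 0.9998). Its sign changed with the setting, from -0.15 without WT2 to 0.16 without WT1.

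Ppargc1b (ENSMUSG00000033871, chromosome 18, 61298136 to 61400431, minus strand), the related coactivator PGC-1beta with the microRNA gene Mir378a inside it, was at 5.84, 11.05 and 9.60 FPKM in WT and at 7.82, 6.22 and 8.42 FPKM in KO libraries. It had the largest relative spread of the 10, with a coefficient of variation of 24.4% over the 6 libraries, and its lowest and highest values were both in WT. Within WT the coefficient of variation was 30.4%, where 154 to 294 fragments per library give 6.76% from counting alone. KO differed from WT by a log2 of -0.18 (SE 0.21, limma adjusted p = 0.988). Without WT1 it was -0.42 and both remaining WT values lay above all KO values, but the adjusted p was 0.311. It was -0.01 without WT2 and -0.07 without KO2, so either of these libraries left out removed most of the difference.

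The 2 coactivators had their high and low values in different libraries. In WT1, where Ppargc1a was highest and Ppargc1b lowest of the 6, their FPKM ratio was 3.41, and in WT2, where Ppargc1b was highest, it was 1.16. The ratio was 1.60 in WT3 and 2.34, 2.73 and 1.48 in KO1, KO2 and KO3, so that the KO values lay within the range of WT. With the joint exon length the WT2 ratio was 0.869, so which of the pair was higher in that library depends on the length. Beside this, the summed fibroblast markers were lowest in WT1 (178 FPKM) and highest in WT2 (368 FPKM), as was Ppargc1b. The summed endothelial markers (78.8 and 128 FPKM) and macrophage markers (4.28 and 10.2 FPKM) had the same extremes. The summed adipocyte markers did not, lowest in KO2 (16.1 FPKM) and highest in WT3 (57.3 FPKM), nor did the brown fat and fibre markers. This comparison was picked with the values known. The part of fibroblasts, endothelial cells and macrophages in the Ppargc1b values was not tested. Pprc1, the third PGC-1 relative, ranged from 8.54 to 10.1 FPKM and was picked out with its values known. Of the summed FPKM of the 3 genes, Ppargc1a made up 46.2% ± 9.48 in WT and 48.8% ± 5.69 in KO (SD, n = 3; exact two-sided permutation p = 0.8, with 0.1 the smallest p possible for 3 against 3).

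Perm1 (ENSMUSG00000078486, chromosome 4, 156215868 to 156221307, plus strand), whose protein works with PGC-1alpha and ERRalpha in muscle, was at 66.6, 63.3 and 65.8 FPKM in WT and at 77.8, 52.8 and 61.2 FPKM in KO. The WT values were close together and the KO values surrounded them. Counting error alone gives a coefficient of variation of 1.97% in WT and 2.05% in KO, and those observed were 2.64% and 19.9%. KO differed from WT by a log2 of -0.05 (SE 0.13, limma adjusted p = 0.988).

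Esrra (ENSMUSG00000024955, chromosome 19, 6910977 to 6921813, minus strand), encoding the receptor ERRalpha that drives respiratory chain genes with PGC-1alpha, was at 146, 139 and 159 FPKM in WT and at 189, 132 and 149 FPKM in KO. Both the highest and the lowest value were in KO. Its exons share 73 bases with those of Trmt112 on the other strand, a gene at 19.3 to 22.7 FPKM, and 91 bases with Mir6990, so a small part of its fragments is uncertain. KO differed from WT by a log2 of 0.06 (SE 0.13, limma adjusted p = 0.988) and turned to -0.08 without KO1. Perm1 and Esrra had their extremes in the same libraries, KO1 and KO2. The ratio of Perm1 to Esrra FPKM was 0.455, 0.455 and 0.413 in WT and 0.412, 0.400 and 0.411 in KO, a coefficient of variation of 5.74% where Perm1 itself had 12.6% and Esrra 13.2%. This pair was chosen after its values were seen.

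**Figure D4:**
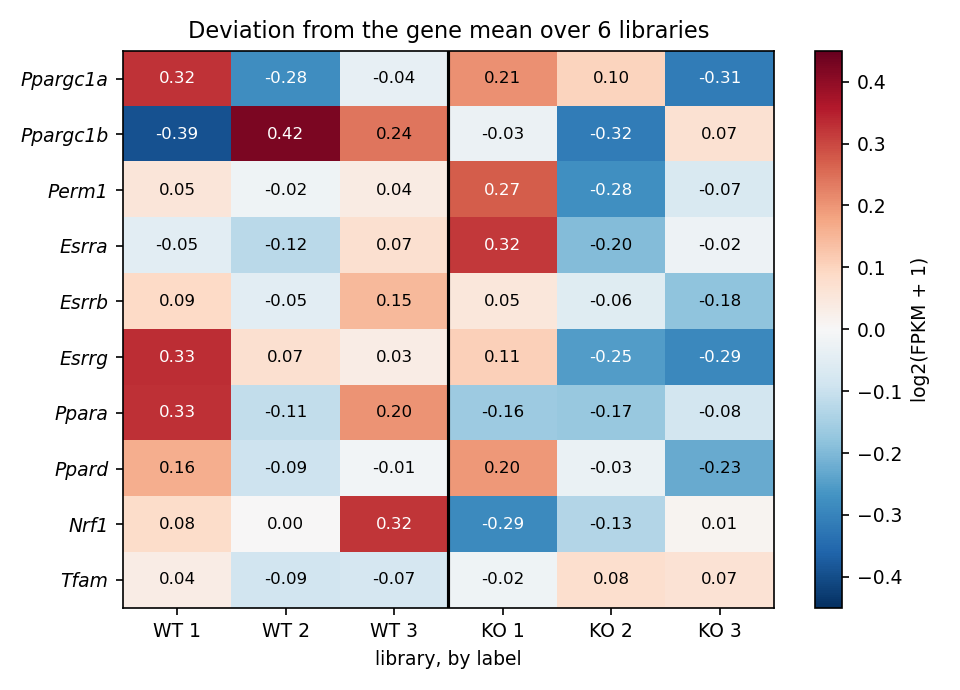
Deviation of each regulator's log2(FPKM + 1) from its own mean over the 6 libraries (rows are genes, columns libraries, colour and number give the deviation). Ppargc1b is lowest in WT 1 (-0.39) where Ppargc1a is highest (0.32), Esrra (0.32) and Perm1 (0.27) are both highest in KO 1, and the Tfam row stays between -0.09 and 0.08.

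Esrrg (ENSMUSG00000026610, chromosome 1, 187608791 to 188214885, plus strand), the receptor ERRgamma that is known for oxidative, slow and vascularised fibres, was at 12.1, 9.91 and 9.62 FPKM in WT and at 10.2, 7.72 and 7.49 FPKM in KO. KO2 and KO3 lay below all WT values and KO1 lay inside their range. The means were 10.5 ± 1.34 and 8.46 ± 1.49 FPKM (SD, n = 3 each), with a log2 difference of -0.29 (SE 0.14, 95% interval -0.61 to 0.03, limma adjusted p = 0.988). This was the difference of largest size among the 10, and 90.9% of tested genes had a smaller one. Without KO1 it was -0.42, with no overlap between the labels (limma adjusted p = 0.823). It was -0.20 without WT1, -0.22 without KO3 and -0.24 without KO2. The slow and type IIa fibre markers given above had lower means in KO in the same comparison, most of them with overlap between labels. Their part in the Esrrg values was not tested.

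Esrrb (ENSMUSG00000021255, chromosome 12, 86361117 to 86521628, plus strand), encoding ERRbeta, was at 5.60, 4.999 and 5.87 FPKM in WT and at 5.43, 4.97 and 4.47 FPKM in KO. The observed coefficients of variation, 8.11% and 9.62%, were close to the 8.48% and 9.17% that counting 95 to 151 fragments gives. KO differed from WT by a log2 of -0.12 (SE 0.12, limma adjusted p = 0.988). Within the family, Esrra made up 89.2%, 90.3% and 91.1% of the summed ERR FPKM in WT and 92.4%, 91.2% and 92.6% in KO, so the 3 KO values lay just above the 3 WT values. The exact two-sided permutation p was 0.1, the smallest that 3 against 3 libraries allow, and 0.3 after Benjamini-Hochberg adjustment over the 3 family shares tested. Esrrg made up 7.36%, 6.44% and 5.51% in WT and 4.98%, 5.33% and 4.66% in KO. These shares inherit the short length behind the Esrra values.

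Ppara (ENSMUSG00000022383, chromosome 15, 85734983 to 85802819, plus strand), the PPARalpha receptor that switches on fatty acid oxidation genes, was at 12.7, 9.11 and 11.6 FPKM in WT and at 8.75, 8.72 and 9.32 FPKM in KO. WT1 and WT3 lay above all KO values, while WT2 lay between KO1 and KO3. The means were 11.1 ± 1.84 and 8.93 ± 0.339 FPKM (SD, n = 3 each), giving a log2 difference of -0.28 (SE 0.13, 95% interval -0.57 to 0.01, limma adjusted p = 0.988). Without WT2 the labels did not overlap and the difference was -0.40, and without WT1 it was -0.18. The counting error of 119 to 137 fragments per KO library, 8.84%, is larger than the 3.79% observed between the KO libraries.

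Ppard (ENSMUSG00000002250, chromosome 17, 28232700 to 28301474, plus strand), encoding PPARdelta, the PPAR form most associated with endurance-type muscle, was at 22.9, 19.0 and 20.1 FPKM in WT and at 23.4, 19.9 and 17.3 FPKM in KO. The labels overlapped throughout (log2 difference -0.04, SE 0.13, limma adjusted p = 0.988). Pparg, the fat cell form and likewise picked out with its values known, was at 3.08 to 4.16 FPKM in WT and 1.92 to 4.43 FPKM in KO. Ppard made up 58.7% ± 2.42 of the summed PPAR FPKM in WT and 62.5% ± 3.596 in KO (SD, n = 3; exact two-sided permutation p = 0.3, adjusted 0.45). This share too rests on the lengths: by joint exon length Ppard was at 4.11 and Ppara at 3.94, with overlapping ranges.

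Nrf1 (ENSMUSG00000058440, chromosome 6, 30047988 to 30153458, plus strand), nuclear respiratory factor 1, was at 6.46, 6.05 and 7.80 FPKM in WT and at 4.77, 5.42 and 6.10 FPKM in KO. WT2 (6.05 FPKM) lay just below KO3 (6.10 FPKM), and otherwise each WT value was above each KO value. KO differed from WT by a log2 of -0.27 (SE 0.13, 95% interval -0.57 to 0.03, limma adjusted p = 0.988), on 86 to 129 fragments per library. Tfam (ENSMUSG00000003923, chromosome 10, 71225464 to 71238280, minus strand), the mitochondrial transcription factor A, was at 30.9, 28.3 and 28.5 FPKM in WT and at 29.7, 31.8 and 31.6 FPKM in KO. It was the steadiest of the 10, with a coefficient of variation of 5.02% over the 6 libraries where counting alone gives 4.93% within WT. Its log2 difference of 0.08 (SE 0.08, 95% interval -0.10 to 0.27, limma adjusted p = 0.988) ran from 0.06 to 0.13 over the alternatives that can move it (scaling, pseudocount, library weights, voom and left-out libraries). The lower Nrf1 and higher Tfam means thus went in opposite directions, and neither passed the test.

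Partners and upstream regulators of the network, 37 genes for co-receptors, kinases, deacetylases, corepressors and related factors, were all tested, and 0 passed. Of them 18 were higher and 19 lower in KO (median log2 difference -0.00), 2 had an unadjusted p under 0.05, both higher, and 4 had labels that did not overlap, both near the 4.59% and 9.48% of all tested genes. Mef2c, a muscle transcription factor that acts on the Ppargc1a promoter, was at 280 ± 11.8 FPKM in WT and 312 ± 4.21 FPKM in KO (log2 difference 0.16), and Rb1, the retinoblastoma protein gene, at 13.5 ± 0.641 and 16.2 ± 0.662 FPKM (log2 difference 0.24). For both, the 3 KO values lay above the 3 WT values (limma adjusted p = 0.988). The abundant Tfeb, a lysosomal and metabolic regulator, was at 116 ± 5.95 and 114 ± 6.89 FPKM, and Mef2d at 112 ± 7.12 and 114 ± 10.6 FPKM.

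Of 29 genes of fatty acid use, on which PPAR and ERR proteins act, 26 were tested, 12 of them higher and 14 lower in KO (median log2 difference -0.01), 0 passed, and 1 had an unadjusted p under 0.05, no more than the 4.59% of all tested genes. That gene was Fabp3, the heart-type fatty acid-binding protein that slow and oxidative fibres hold most of, at 775, 939 and 568 FPKM in WT and 651, 474 and 535 FPKM in KO (log2 difference -0.44, limma adjusted p = 0.988), with WT3 inside the KO range. The number of list genes lower in KO was 21 without KO1 and 20 without WT3. Plin2, a lipid droplet coat protein gene, was at 47.6 ± 1.79 and 40.6 ± 5.49 FPKM. Its KO values lay below WT only narrowly, with KO2 at 45.74 and WT2 at 45.79 FPKM. It was the 1 gene of the 26 without overlap, beside 9.48% of all tested genes. Acadm, the medium-chain acyl-CoA dehydrogenase, was at 552 ± 35.7 and 564 ± 46.4 FPKM. Ech1, a dienoyl-CoA isomerase, was at 404 ± 52.9 and 348 ± 24.6 FPKM.

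The PPAR-responsive genes Pdk4 and Ucp3, chosen after their values were seen, varied widely between libraries of 1 label. Pdk4, the kinase that shuts down pyruvate dehydrogenase in fasting, was at 369, 178 and 37.4 FPKM in WT and at 228, 98.7 and 132 FPKM in KO. Ucp3, a mitochondrial carrier that rises with fatty acid supply, was at 104, 38.4 and 23.5 FPKM in WT and at 75.1, 65.5 and 34.3 FPKM in KO. WT1 and KO1 were the highest libraries for both genes and also for Ppargc1a, with WT1 ahead each time. The KO values of both genes lay within the WT range.

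Genes of oxidative metabolism that PGC-1 and ERR proteins are known to act on also gave 0 of 26 past the test, with 15 higher and 11 lower in KO (median log2 difference 0.03). The 3 with an unadjusted p under 0.05 were all lower and had labels that did not overlap. Over all tested genes 4.59% had such a p, and 377 of those 523 were also lower. Bdh1, a ketone body dehydrogenase that is a known PGC-1alpha-responsive gene in muscle, was at 26.5, 27.1 and 37.3 FPKM in WT and at 21.1, 14.4 and 9.03 FPKM in KO (log2 difference -1.04, SE 0.26, limma adjusted p = 0.988). Ckmt2, the mitochondrial creatine kinase of muscle, was at 1034 ± 31.8 and 880 ± 48.5 FPKM, and Mb, myoglobin, at 6546 ± 158 and 5701 ± 410 FPKM. Atp5b, an ATP synthase subunit gene, was at 3444 ± 24.8 and 3633 ± 251 FPKM and Slc25a4, the muscle ADP/ATP carrier, at 2973 ± 202 and 3118 ± 137 FPKM. In all, 7 of the 26 did not overlap between labels, 3 higher and 4 lower, beside 9.48% of all tested genes, and the list as a whole was not tested.

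Genes that express and copy mitochondrial DNA, the machinery TFAM works in, gave 0 past the test among 18 tested of 20 listed, with 10 higher and 8 lower in KO (median log2 difference 0.01). Of the 18, 1 (Tfb1m) had an unadjusted p under 0.05, and 3 had labels that did not overlap, 1 higher and 2 lower. Over all tested genes these shares were 4.59% and 9.48%, and the list as a whole was not tested. Tfb2m, the partner of TFAM at mitochondrial promoters, was at 52.7 ± 4.86 FPKM in WT and 54.8 ± 6.53 FPKM in KO. Tfb1m, a mitochondrial rRNA methyltransferase, was at 5.68, 4.37 and 5.03 FPKM in WT and at 2.56, 3.83 and 4.18 FPKM in KO (log2 difference -0.43, limma adjusted p = 0.988), below WT in all 3. Lrpprc, which stabilises mitochondrial mRNAs, went the other way, at 49.5 ± 3.39 and 55.8 ± 2.19 FPKM with KO above WT in all 3, and the protease gene Lonp1 was at 37.1 ± 0.539 and 38.6 ± 5.57 FPKM.

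Of the 13 protein-coding genes of mitochondrial DNA, 9 were higher and 4 lower in KO (median log2 difference 0.06) and 0 passed. The leading mt-Co1 was at 38138 ± 2742 and 39819 ± 4644 FPKM, mt-Cytb at 27313 ± 1983 and 28438 ± 3158 FPKM and mt-Nd1 at 24023 ± 1723 and 25998 ± 3804 FPKM. The 2 with the smallest unadjusted p were among those at far lower levels: mt-Nd4l was at 0.397 to 2.19 FPKM in 5 libraries and at 54.3 FPKM in WT2, and mt-Co2 was at 34.7 to 258 FPKM. Several genes of mitochondrial DNA overlap a neighbour and have nuclear copies, so these values are uncertain.

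**Figure D5:**
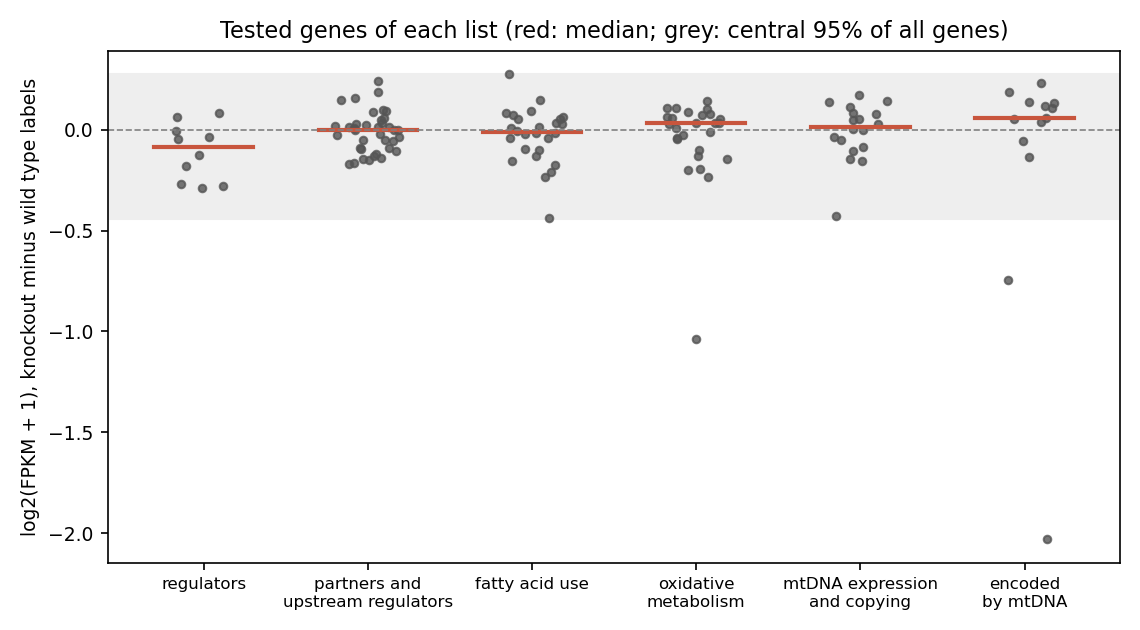
Log2(FPKM + 1) difference (KO minus WT labels) of each tested gene in the regulators and the 5 pathway lists, with the list median in red and the central 95% of all tested genes as a grey band. The medians lie between -0.09 and 0.06, and the lowest points are mt-Nd4l (-2.03) and Bdh1 (-1.04).

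The genes whose library-to-library pattern was nearest to a regulator were looked up for the 3 regulators of largest spread, by the root mean square difference of the deviations over 6 libraries. For Ppargc1b they were Anpep, an aminopeptidase gene (difference 0.05 log2 units), and Slit3, a secreted guidance protein gene (0.06), beside a median of 0.31 over all tested genes. For Ppargc1a they were Map2k3, a kinase of the p38 pathway (0.05), at 126, 93.4 and 103 FPKM in WT and 120, 117 and 84.2 FPKM in KO, and 0610012G03Rik (0.07). For Esrrg they were Zdhhc23, a palmitoyltransferase gene (0.04), and Ggt7, of the gamma-glutamyltransferase family (0.05). These 2 lay at 0.865 to 1.75 and 0.994 to 1.96 FPKM, near the filter of 1 FPKM, where the added 1 shrinks deviations. With 6 libraries many genes come this near: 35, 19 and 40 tested genes lay within 0.1 of Ppargc1b, Ppargc1a and Esrrg.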

How the data were processed

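The authors deposited 1 table of FPKM per library. The tools named are TopHat2 2.1.1 and Cufflinks 2.2.1 and the build is mm10, per the submitters' processing notes, without their roles. No source used here gives the annotation, strand assignment or filters. Sample titles gave each library its group and number. Of 41025 IDs, 40452 matched a symbol. With 1 length per gene, values became whole fragments for 23559 of 23559 genes above 0 (100%, tolerance 0.002 fragments), which gave the fragment counts. For genes above 0 in few libraries such a length can nearly always be found, so the 100% says little about them. Each member was above 0 in every library. The fragment counts cover counting error only. Positions, overlaps and transcript lengths came from GENCODE vM21 on the same assembly.

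Log2(FPKM + 1) values were tested in limma 3.58.1 under R 4.3.3, its trend option on, over the 11383 genes whose mean reached 1 FPKM, with Benjamini-Hochberg adjustment and a threshold of 0.05, and were checked on simulated data. Shares were compared by exact permutation (scipy 1.17.1). No 2 libraries agreed within counting noise. The members and lists were chosen with earlier results of these data known. Named genes are the 10 members and, from each pathway list, the 3 with the highest mean and the 2 with the smallest p, and for the 3 members of largest spread the 2 nearest genes. Pdk4, Ucp3, Pprc1 and Pparg fall outside this rule and were chosen after their values were seen. The same holds for Myh2, Tnnc1 and Acta1, named from the fibre marker lists. Alternatives were other scalings, pseudocounts of 0.1 and 0.01, other filters, a replicate block, no trend, library weights, limma voom on the fragments, leaving out each library and, added after seeing the data, other gene lengths.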

Additional observations from a re-analysis of the deposited data

How the results depend on the processing

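Depth limits the lowest members: Nrf1 and Esrrb rest on 86 to 151 fragments per library. In 16 alternative fits 0 of the 10 regulators passed the test, with adjusted p from 0.311 to 1. Ppargc1b, Ppara, Esrrb, Esrrg, Nrf1 and Tfam kept their direction in all that can move an estimate. The filters, the replicate block and the fit without trend cannot. The other 4 regulators were near 0 and changed sign in at least 1, and the cause was not tested. Ppargc1a turned to 0.042 with library medians subtracted, 0.024 under quantile normalization, 0.075 with library weights and 0.00048 with limma voom, with -0.15 to 0.16 on leaving out 1 library. Ppard turned to 0.0085 with library medians subtracted (-0.15 to 0.065 on leaving out 1 library), and Esrra to -0.043 with library weights (-0.077 to 0.18). Perm1 ran from -0.20 to 0.080 on leaving out 1 library.

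Leaving out 1 library called 0 to 3 genes over all genes (3 without WT3, 1 without WT1, 1 without KO3), none of them a regulator. It left 0 to 4 regulators with labels that do not overlap, on fewer libraries: 4 without KO1 (Esrrb, Esrrg, Tfam and Perm1) beside 23.2% of all tested genes, 3 without WT2 (Ppara, Esrrb and Nrf1) beside 16.8%, 2 without WT1 (Ppargc1b and Tfam) beside 30.3% and 2 without KO3 (Ppara and Nrf1) beside 16.96%.

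Of the pathway lists, the number lower in KO fell to 8 for fatty acid use and 7 for oxidative metabolism with library medians subtracted, was 5 for mitochondrial DNA expression at a mean of at least 5 FPKM (fewer genes tested), and was 7 for genes of mitochondrial DNA under quantile normalization (2 to 8 on leaving out 1 library). Over all genes, those at an unadjusted p under 0.05 numbered 523 and 1413 with library weights, 987 with no filter, 339 at a mean of at least 5 FPKM, 1356 without WT1, 344 without WT3 and 342 without KO2. Of them 27.9% were higher in KO, and 54.5% with library medians subtracted or 50.7% under quantile normalization.

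Over all tested genes, same-numbered libraries deviated together with correlations of 0.02, -0.04 and 0.02, and other WT and KO pairs with -0.05 to 0.03. An all-gene correlation cannot show whether a replicate number marks something shared that bears on only some genes. With the replicate number as a block, 0 genes passed, 472 had an unadjusted p under 0.05, and no call changed.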
